A study of Homo sapiens with 6 samples.

Results

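The TTD peaks described here are the regions of HepG2 chromatin that were enriched by the Tandem-Tudor domain (TTD) of UHRF1, a human protein, and that contain the transcription start site (TSS) of a protein-coding gene. A TSS was taken as the 5′ end of the gene record in GENCODE release 44 on hg38, and a peak was counted when this base lay inside it. On chromosomes 1 to 22 and X, 561 of the 31569 TTD peaks (1.78%, 95% Wilson interval 1.64 to 1.93) covered 589 of 19970 protein-coding TSSs, a background share of 2.95% (2.72 to 3.19). Of these peaks, 536 contained 1 TSS, 22 contained 2 and 3 contained 3. The members were found from positions only, without any measured height or score.

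The series comprised 6 libraries from HepG2 cells, an established human hepatoblastoma line that carries hepatocyte features, and the labels name no treatment. They were 2 TTD CIDOP libraries, 2 H3K9me2 ChIP libraries and 2 inputs, all from native mononucleosomes released with micrococcal nuclease. In CIDOP, a GST-tagged reading domain, here residues 126 to 280 of UHRF1, takes the role that the antibody plays in ChIP. The peaks were called once on the mean of both TTD replicates, so the list carries no error between replicates, no read depth and no peak height, and a width is its only measured quantity. The intervals given with shares are therefore 95% Wilson intervals that cover counting error only, and no comparison has a p-value. Positions alone do not allow the cell type to be checked against marker expression. Widths are known to the 10 bp grid of the list.

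UHRF1 is a chromatin protein that is needed to maintain DNA methylation, and its TTD binds histone H3 methylated at lysine 9. H3K4me1, a mark of enhancers and promoter flanks, favours this binding when it is on the same H3 tail, while H3K4me3, the mark of active CpG island promoters, disfavours it. Housekeeping genes mostly start in CpG islands, whereas many genes that are used in 1 tissue, such as those for albumin and cytochromes P450 in the liver, start in CpG-poor DNA and often at a TATA box.

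Examples of 2 kinds of promoter under the peaks are given as the 100 bp directly upstream of 5 covered TSSs. They were read from hg38 5′ to 3′ on the strand of the gene. Neither kind is typical of the 589 covered TSSs, of which 40 (6.79%) had TATAAA there and 34 (5.77%) were CpG-rich. The first 2 are covered genes of plasma proteins and P450 enzymes with TATAAA in the last 50 bp before the TSS. They were CYP3A7, a P450 of the fetal liver, at chr7:99735197-99735296 on the minus strand, and AFM (afamin, a plasma vitamin E carrier) at chr4:73481645-73481744 on the plus strand. Capitals mark the TATAAA motif, whose first base lay 29 and 30 bp upstream of the TSS.
CYP3A7: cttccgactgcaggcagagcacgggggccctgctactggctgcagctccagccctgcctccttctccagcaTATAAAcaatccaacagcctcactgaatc
AFM: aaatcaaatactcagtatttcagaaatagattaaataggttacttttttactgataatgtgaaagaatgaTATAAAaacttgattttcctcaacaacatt

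The other 3 sequences are the contrast, namely the CpG-rich TSSs under the widest peaks, with every CG in capitals. They were HOXD1, a homeobox patterning gene, at chr2:176188568-176188667 on the plus strand, CMC1, a mitochondrial protein gene, at chr3:28241484-28241583 on the plus strand, and the histone gene H2BC11 at chr6:27132796-27132895 on the minus strand. The window of H2BC11 also contains the letters TATAAA, left in lower case here, and its 3 CG differ little from the 2 of CYP3A7, so in these 100 bp it is not a clear contrast and its class rests on the 1 kb around the TSS. The windows of HOXD1, CMC1 and H2BC11 held 13, 6 and 3 CG in 100 bp, against 2 and 0 in the sequences of CYP3A7 and AFM.
HOXD1: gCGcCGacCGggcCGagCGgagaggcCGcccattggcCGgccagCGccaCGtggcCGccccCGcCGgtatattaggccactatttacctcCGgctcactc
CMC1: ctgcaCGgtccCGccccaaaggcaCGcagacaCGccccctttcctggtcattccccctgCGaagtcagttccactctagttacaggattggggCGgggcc
H2BC11: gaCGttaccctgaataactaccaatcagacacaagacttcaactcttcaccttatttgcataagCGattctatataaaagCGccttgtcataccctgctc

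The covered TSSs were mostly CpG-poor. Promoters were classed on the 1 kb around the TSS as low CpG (observed/expected ratio below 0.48), high CpG (ratio of at least 0.75 and at least 55% GC) or intermediate. Of the 589 covered TSSs, 404 (68.6%, 64.7 to 72.2) were low, 151 (25.6%) intermediate and 34 (5.77%) high. In the other direction, a peak lay over 404 of 6514 low CpG TSSs, a background of 6.2%, over 151 of 6291 intermediate ones, or 2.4%, and over 34 of 7165 high CpG ones, or 0.475%. The 3 intervals, 5.64 to 6.81, 2.05 to 2.81 and 0.340 to 0.662, did not overlap. Divided more finely, the covered share was 8.09% (6.97 to 9.36) of 2016 TSSs at a ratio of 0.1 to 0.2, 3.39% (2.52 to 4.55) at 0.3 to 0.4, and 0.285% (0.122 to 0.665) of 1756 TSSs at 0.9 to 1. None of the 286 TSSs with a ratio of 1 to 1.1 was covered (0 to 1.33%).

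**Figure D1:**
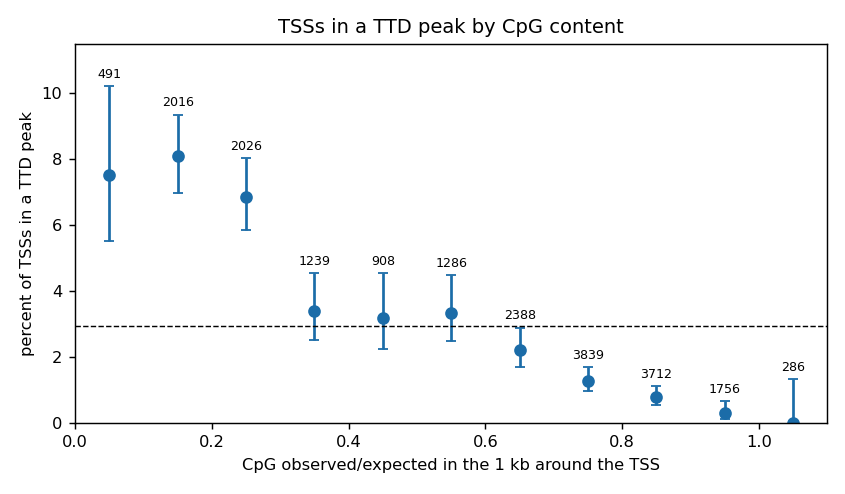
Share of protein-coding TSSs that lie in a TTD peak (y axis, percent) against the CpG observed/expected ratio of the 1 kb around the TSS (x axis, bins of 0.1). Points are shares, bars are 95% Wilson intervals (counting error only), the numbers are TSSs per bin (bins of 50 or more) and the dashed line is the share of all TSSs, 2.95%. The share falls from 8.09% at 0.1 to 0.2 to 0.285% at 0.9 to 1.

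TSSs that only had a peak beside them differed in CpG content. Of the TSSs with no peak over them but one within 2.5 kb, each assigned by its nearest peak only, 1824 had that peak upstream and 977 downstream. Low CpG promoters made up 15.8% (14.2 to 17.5) of the former and 23.4% (20.9 to 26.2) of the latter, against 68.6% of the covered TSSs and 33.7% (33.0 to 34.5) of the 16580 TSSs without a peak within 2.5 kb. The median CpG ratio was 0.259 at covered TSSs, 0.753 beside an upstream peak, 0.723 beside a downstream peak and 0.688 over all TSSs. The median GC content was 49.8%, 59.5%, 59.1% and 59.2%. Covered TSSs thus lay below all promoters in both measures. TSSs with a downstream peak were close to all TSSs in GC content and in the share of the high CpG class, 38.3% (35.3 to 41.4) against 35.9%. No test was run between these groups, because neighbouring TSSs can share a peak and are not independent.

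The peaks over a TSS ranged from 470 to 50780 bp. Their median width was 2840 bp, with quartiles of 1720 and 4750 bp, against 2250 bp (1370 and 3650) for all peaks. A wide interval contains more bases that could be a TSS, so the widths are also given by base. Counting each base of all peaks once, the median base lay in a peak of 3840 bp (quartiles 2350 and 6470). The share of peaks over a TSS was 2 of 733 (0.273%) below 500 bp, 1.39% at 500 to 1000 bp, 2.77% at 5 to 10 kb and 9 of 75 (12%, 6.44 to 21.3) at 20 kb or more. Per Mb of peak sequence, however, the number fell from 17.9 at 500 to 1000 bp through 9.01, 5.97 and 4.16 to 2.74 at 10 to 20 kb. It was 7.05 below 500 bp and 4.54 at 20 kb or more, where it rests on 2 and 9 peaks. Peaks over low CpG TSSs were wider (median 3465 bp, quartiles 2030 and 5748) than those over intermediate (1960 bp, 1115 and 3320) and high CpG TSSs (2095 bp, 1158 and 2860), with wide overlap of the ranges.

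**Figure D2:**
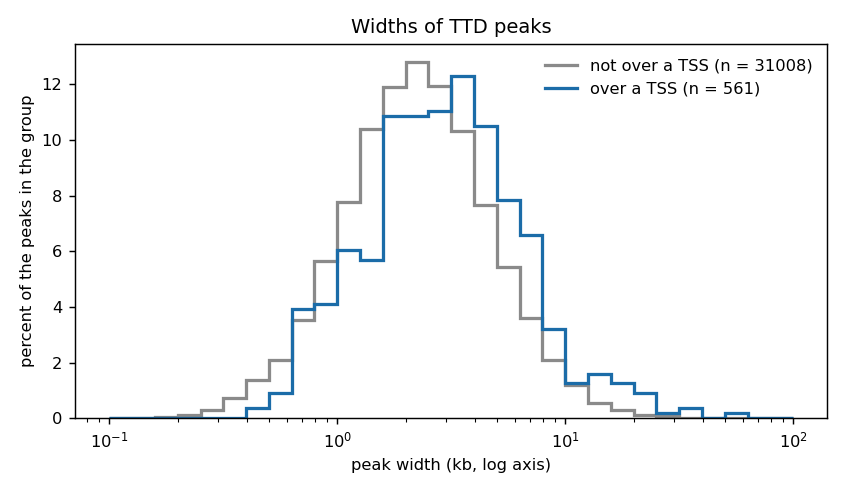
Widths of the 561 TTD peaks over a protein-coding TSS and of the 31008 other peaks (x axis, kb on a log axis), as the percent of the peaks in each group (y axis). The median is 2840 bp over a TSS and 2240 bp elsewhere, and both distributions overlap over most of their range.

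Of the genes under the 10 widest peaks, MBL2, ALB and UGT2B10 belong to the hepatocyte gene classes counted below and the others do not. DHRS2, a short-chain dehydrogenase/reductase, had a peak of 50780 bp, the widest of the list, of which 40814 bp lay upstream of the TSS. It was followed by 36930 bp at ACSM2B, a mitochondrial acyl-CoA synthetase of liver and kidney. TAT, the tyrosine aminotransferase that begins tyrosine breakdown, had a peak of 31750 bp, whose downstream edge lay in exon 12 of the gene. MBL2, the mannose-binding lectin that starts the lectin pathway of complement, had 27360 bp, FABP1, the fatty acid-binding protein of hepatocytes, 23350 bp, and ALB, albumin, 22530 bp. SLC22A25, of the organic anion transporter family, had 22220 bp, HNMT, which inactivates histamine by methylation, 21040 bp, UGT2B10, a glucuronosyltransferase, 20200 bp, and the collagen gene COL21A1 19420 bp. At HNMT and COL21A1 the gene record started in the peak, but the start of the MANE Select transcript, the reference transcript agreed on by RefSeq and Ensembl, lay outside it, 453 and 146514 bp away. At the narrow end were GCNT7, of a family of N-acetylglucosaminyltransferases (480 bp), the zinc finger gene ZNF333 (550 bp), TMEM185B (560 bp) and the histone gene H2BC14 (580 bp), all near the length of a few nucleosomes.

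Over all 589 TSSs, the TSS lay somewhat more often toward the downstream end of its peak. For the 55 covered TSSs of the 8 hepatocyte classes described further on, the longer arm pointed upstream in 27 cases (49.1%, 36.4 to 61.9) and the median was 49.7% upstream, so this lean was not seen there, and the difference was not tested. The median peak reached 1470 bp upstream of the TSS (quartiles 723 and 2741) and 1098 bp downstream (380 and 2210). In 340 of 589 cases (57.7%, 53.7 to 61.7) the longer arm pointed upstream. At the median TSS, 58.8% of the peak lay upstream (quartiles 31.6 and 83.9). When the peak was divided into 10 equal parts, the part at its downstream end contained most TSSs, 97 (16.5%), against 44 (7.47%) in the part at its upstream end and 39 to 70 in the others. The high CpG class had a median of 74.2% upstream (n = 34, quartiles 43.1 and 94.1) against 57.4% (n = 404) in the low class, and the quartiles overlapped. At 500 bp upstream of the TSS, 84.4% of these peaks still continued, against 69.3% at 500 bp downstream. At 2 kb these shares were 37.7% and 29.4%, and at 5 kb 9.0% and 7.81%.

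**Figure D3:**
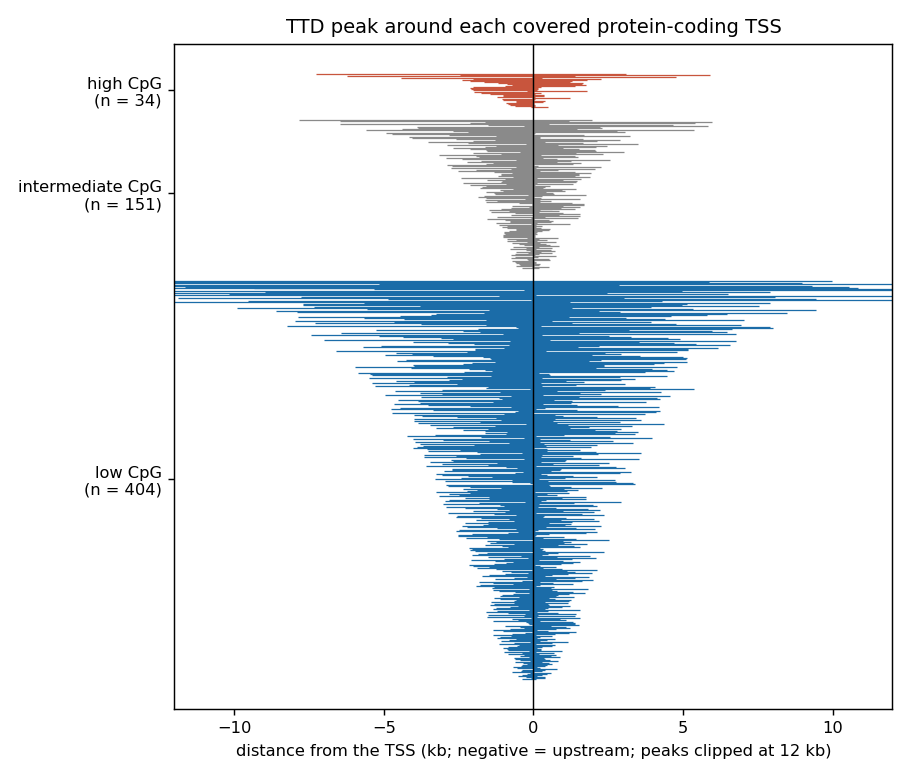
Extent of the TTD peak around each of the 589 covered TSSs (x axis, kb from the TSS, upstream negative, clipped at 12 kb), 1 line per TSS, sorted by width within the low (404), intermediate (151) and high (34) CpG classes. Peaks extend to both sides in each class, and the widest are in the low class.

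The edge of a peak was often close. The median distance from the TSS to the nearer edge was 604 bp, and 95 covered TSSs lay within 150 bp, about 1 nucleosome, of an edge, 64 at the downstream edge and 31 at the upstream edge. Such TSSs made up 38.2% of the high CpG class, 25.2% of the intermediate class and 10.9% of the low class. The TSS of CFB, complement factor B, was the last base of its peak of 4720 bp, and those of C1GALT1C1L and METTL2B lay 1 bp and those of APOBEC3H and EIF5A2 3 bp from an edge. Just outside the rule were PCDHGB1 at 2 bp, TMEM272 at 4 bp, TRIB3 at 5 bp and RPF1 at 9 bp from a peak. In all, 290 TSSs without a peak had one within 150 bp. The TSSs deepest inside were those of SLC22A25 (10558 bp from the nearer edge), DHRS2 (9965 bp), UGT2B10 (9353 bp), ALB (9296 bp) and TAT (8971 bp).

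The 5′ end of a gene record can belong to a rare transcript. For 330 covered genes (56.0%, 52.0 to 60.0) the MANE Select TSS lay in the same peak, for 233 (39.6%) it lay outside, at a median distance of 5215 bp, and 26 genes had no such transcript. Of the 233, 15 had the MANE TSS in another TTD peak. Where the MANE TSS was in the peak, the downstream edge fell in intron 1 for 155 of 330 genes (47.0%, 41.7 to 52.4), in exon 1 for 53, in a later exon for 18 and in a later intron for 70, and the start codon was included in 233 (70.6%). By length, 12.2% of the sequence of these peaks was exon, 39.7% intron and 48.1% outside protein-coding genes, against 3.04%, 46.2% and 50.7% of all peaks. By the rule, each peak over a TSS includes at least part of a first exon, so its higher exon share is not a separate result. Of the covered TSSs, 120 (20.4%) lay within another protein-coding gene. A lncRNA TSS was also present in 47 of the 561 peaks (8.38%, 6.36 to 11), against 835 of all 31569 (2.65%). The median gap to the next peak, 9360 bp, was close to the 9330 bp of all peaks.

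In 34 cases (5.77%, 4.16 to 7.96) the peak contained the whole gene. These genes were short, with a median of 758 bp. They included 5 PPIAL4 genes, intronless relatives of cyclophilin A on chromosome 1 under peaks of 6190 to 7000 bp, and 9 histone genes. Also among them were PRM1, PRM3 and TNP2, which encode sperm nuclear proteins, MBL2, the antimicrobial peptide gene LEAP2, the ribonuclease genes RNASE2 and RNASE8, and HOXD1. The PPIAL4 copies are nearly identical, so their reads cannot be told apart and the 5 peaks may not be separate measurements.

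Genes that hepatocytes use for export and detoxification were covered more often than genes at large. The classes were lists of genes by function or family name. The 8 hepatocyte classes were plasma proteins, coagulation factors, complement, apolipoproteins, cytochromes P450, conjugation enzymes, alcohol, aldehyde and aldo-keto enzymes, and liver transcription factors. Amino acid and urea cycle enzymes formed a separate class and are counted among the other genes here. In the 8 classes, 55 of 288 TSSs (19.1%, 15 to 24) lay in a TTD peak. For the other genes it was 534 of 19682 (2.71%, 2.5 to 2.95), and the background was 2.95%. Among low CpG TSSs, where the background was 6.2%, the shares were 53 of 212 (25%, 19.7 to 31.2) and 351 of 6302 (5.57%, 5.03 to 6.16). The MANE TSS was in the same peak for 44 of the 55. Chromosomes 2, 14, 16, 17 and 20 are taken as gained in HepG2 from general knowledge of this line. Without them, 46 of 242 TSSs of the 8 classes (19.0%) were covered.

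**Figure D4:**
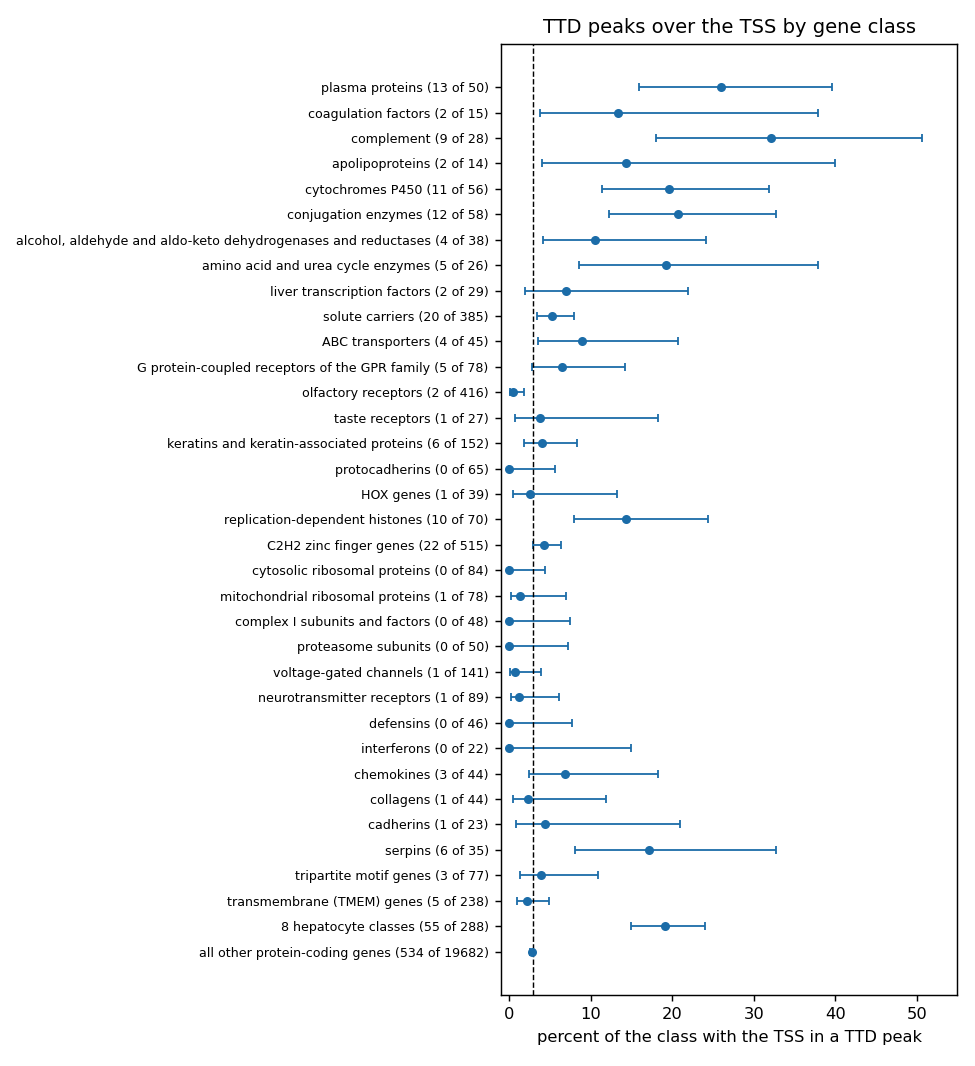
Share of the TSSs of each gene class that lie in a TTD peak (x axis, percent), with the numbers of covered and all genes beside each name. Points are shares, bars are 95% Wilson intervals (counting error only) and the dashed line is the share of all TSSs, 2.95%. The 8 hepatocyte classes together reach 19.1%, and 6 classes have no covered gene.

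Of the plasma protein genes, 13 of 50 (26.0%, 15.9 to 39.6) were covered. They were ALB, AFP (the fetal counterpart of albumin), AFM, CPB2 (a carboxypeptidase that slows clot lysis), HP (haptoglobin), HPX (hemopexin), PLG (plasminogen), A2M, SAA4, ITIH1, ITIH3, SERPINA4 and SERPINA5. The peak over ALB extended 13233 bp upstream and 9296 bp downstream of the gene start and also contained the MANE TSS, 7173 bp away. CPB2 had a peak of 16870 bp, HP of 8770 bp and PLG of 7200 bp. At AFP, a peak of 7960 bp covered the start of the gene record, but the MANE TSS lay 5083 bp from it and outside the peak. Another 15 plasma protein genes had a peak within 2.5 kb only, such as CP (ceruloplasmin), 149 bp from its TSS, and TF (transferrin), 450 bp from it.

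Complement genes were covered in 9 of 28 cases (32.1%, 17.9 to 50.7). MBL2 had the widest of these peaks, with 5176 bp upstream and 22183 bp downstream of the TSS. C8A, a subunit of the membrane attack complex, had a peak of 8730 bp, and C4BPA and C4BPB, which encode the C4b-binding protein, 4120 and 4080 bp. C4A (6540 bp) and C4B (6570 bp), as well as CFHR2, belong to families of near-identical copies, and their peaks are uncertain for that reason. Coagulation factors were covered in 2 of 15 cases (13.3%, 3.74 to 37.9), FGB (fibrinogen beta chain, 6420 bp) and KLKB1 (prekallikrein, 3970 bp). Among those of low CpG the share was 2 of 14 (14.3%, 4.01 to 39.9), an interval that included the low CpG background of 6.2%, and 6 more coagulation genes had a peak in the flank only. Among these were the other fibrinogen genes, with the nearest peak 299 bp upstream of FGA and 284 bp upstream of FGG. Of 14 apolipoprotein genes, APOA5 (5940 bp) and APOA4 (1880 bp) were covered (14.3%, 4.01 to 39.9). The low CpG share was 2 of 12 (16.7%, 4.70 to 44.8), which also included 6.2%, and the MANE TSS of APOA5 lay outside the peak.

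Genes for oxidation and conjugation of drugs, bile acids and steroids were also covered more often than the background. Of 56 cytochrome P450 genes, 11 (19.6%, 11.3 to 31.8) were covered. CYP3A7, whose TATA promoter is printed above, had the widest of these peaks, 8500 bp, of which 7995 bp lay downstream of the TSS. CYP3A5 had 4270 bp, CYP8B1, the sterol 12-alpha-hydroxylase of bile acid synthesis, 3860 bp, CYP4F2 2980 bp, and CYP21A2, the adrenal steroid 21-hydroxylase, which has a close pseudogene copy, 4710 bp. At CYP2E1 the MANE TSS was 6957 bp from the gene start and not in the peak of 3680 bp. The conjugation enzymes reached 12 of 58 (20.7%, 12.3 to 32.8), with peaks of 20200 bp at UGT2B10, 19220 bp at UGT2B15, 11320 bp at GSTA2, 7170 bp at GSTA1, 6280 bp at UGT2A3 and 4410 bp at the estrogen sulfotransferase gene SULT1E1. UGT2B and GSTA genes have close relatives beside them, so the assignment of reads to single copies is uncertain. Without families of near-identical copies the share of conjugation enzymes was 12.1% (4.82 to 27.3).

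Of the alcohol, aldehyde and aldo-keto enzymes, 4 of 38 (10.5%, 4.17 to 24.1) were covered. These were ADH4, an alcohol dehydrogenase of the liver (17190 bp, with the MANE TSS 13495 bp away and outside), AKR1C4, which reduces steroids (7590 bp), ALDH8A1 (7310 bp) and AKR1B10 (5290 bp). Of 26 amino acid and urea cycle enzymes, 5 (19.2%, 8.51 to 37.9) were covered, namely TAT, MAT1A, which makes S-adenosylmethionine in the liver (8570 bp), KYNU of tryptophan breakdown (7040 bp), AGXT2 (4980 bp) and HAL, which starts histidine breakdown (1680 bp). All 5 had the MANE TSS in the peak. Of 29 liver transcription factor genes, which form 1 of the 8 hepatocyte classes, 2 (6.90%, 1.91 to 22) were covered. This interval included the background of 2.95%. It also included the 19.1% of the 8 classes, a share that these genes are part of. The covered genes were NR1I2, which encodes the xenobiotic receptor PXR, with 7390 bp, and FOXA2 with 1110 bp. The MANE TSS of FOXA2 lay outside the peak. The nearest peak lay 3099 bp downstream of the TSS of FOXA1 and 2459 bp upstream of that of HNF4A. Of the other genes that the study names as liver genes or shows in browser views, the transporter gene ABCA9 had a peak 1032 bp upstream of its TSS.

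Solute carriers were covered in 20 of 385 cases (5.19%, 3.39 to 7.89). After SLC22A25, the widest peaks were at the glucose transporter gene SLC2A10 (9800 bp), the phosphate transporter family genes SLC17A2 (8570 bp) and SLC17A1 (6390 bp), and SLC27A5, which activates bile acids (6340 bp). Among low CpG solute carriers the share was 16 of 157 (10.2%, 6.37 to 15.9). ABC transporters reached 4 of 45 (8.89%, 3.51 to 20.7) with ABCA4 (11260 bp), ABCB4, the phospholipid exporter of bile (5680 bp), and ABCA6 among them. At MANE TSSs the share was 4.44% (1.23 to 14.8), an interval that included the background.

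Olfactory receptor genes were covered less often than the low CpG background of 6.2%. Of 416 such genes, 2 were covered (0.481%, 0.132 to 1.74), OR2F2 and OR6J1, and among the 407 of low CpG the share was 0.491% (0.135 to 1.77). For the next 3 classes the low CpG intervals included the background. None of 46 defensin genes, all low CpG, was covered (0 to 7.71%, where 3 counts would be 6.52%), and none of 22 interferon genes (0 to 14.9%, where 3 counts would be 13.6%). Keratins and keratin-associated proteins, structural proteins of epithelia and hair, reached 6 of 152 (3.95%, 1.82 to 8.34), or 4.14% (1.91 to 8.73) of those with low CpG, led by KRTAP3-2 (13580 bp) and KRT23 (8260 bp). All 6 lay on chromosome 17, which is taken as gained. Voltage-gated channels were covered in 1 of 141 cases, SCN1A (0.709%, 0.125 to 3.91), and neurotransmitter receptors in 1 of 89, CHRNA6 (1.12%, 0.199 to 6.09). Both intervals included the background of 2.95%, and the MANE TSS of both genes lay outside the peak.

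Housekeeping classes had few or no covered genes, but were too small to be set apart from the background of 2.95% or from the 0.475% of high CpG TSSs. No TSS of 84 cytosolic ribosomal protein genes, 48 complex I genes or 50 proteasome genes lay in a TTD peak, with intervals up to 4.37%, 7.41% and 7.13%, where 3 counts would be 3.57%, 6.25% and 6.0%. Mitochondrial ribosomal proteins had 1 of 78 (1.28%, 0.227 to 6.91), MRPL52, whose TSS lay 11 bp from the downstream edge of the peak. Protocadherins, which are not a housekeeping class, had 0 of 65 (0 to 5.58%, where 3 counts would be 4.62%). Replication-dependent histone genes, none of which had a low CpG TSS, lay above the background of 2.95%. Of 70 such genes, 10 (14.3%, 7.95 to 24.3) were covered. They were H3C1, H4C1, H4C4, H3C7, H2BC9, H2BC11, H2AC11, H2BC12, H2AC12 and H2BC14, all on chromosome 6, and 8 of these 10 shared a peak with a neighbouring histone gene. The peak of 7610 bp over H2BC11 and H2AC11 covered 2 TSSs that lie 248 bp apart and point away from each other. The C2H2 zinc finger genes reached 22 of 515 (4.27%, 2.84 to 6.38), led by ZNF300 (5250 bp) and ZNF512 (4990 bp). This share was 1.98% at MANE TSSs.

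Serpins, inhibitors of serine proteases, were covered in 6 of 35 cases (17.1%, 8.10 to 32.7). The 6 covered genes were SERPINA2, SERPINA4, SERPINA5, SERPINA9, SERPINA11 and SERPINA12, all in the cluster on chromosome 14, and none of the 22 serpins outside chromosomes 2, 14, 16, 17 and 20 was covered. SERPINA4 and SERPINA5 have the same gene start in the annotation, and the MANE TSS lay in the peak only for SERPINA4 and SERPINA11. At MANE TSSs the share was 5.88% (1.63 to 19.1), an interval that included the 2.17% of all genes.

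Of the remaining classes, chemokines had 3 of 44 covered (CCL16, CCL14 and CXCL17), tripartite motif genes 3 of 77 (TRIM38, TRIM31 and TRIM40), genes of the GPR receptor family 5 of 78 (GPR171, GPR155, GPR176, GPR35 and GPR119), and transmembrane (TMEM) genes 5 of 238, led by TMEM37 (11220 bp). HOX genes had 1 of 39 (HOXD1), taste receptors 1 of 27 (TAS2R19), collagens 1 of 44 (COL21A1) and cadherins 1 of 23 (CDH9). The intervals of these classes included the background of 2.95%. At MANE TSSs, however, the share of chemokines was 11.6% (5.07 to 24.5) against 2.17% of all genes. In total, 151 covered genes belonged to a class and 438 (74.4%) to none.

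Covered genes lay side by side at several loci. There were 58 runs of 2 or more neighbouring protein-coding genes that were all covered, and they held 138 of the 589 genes (23.4%), 93 of them in the 37 runs with more than 1 peak. The longest run comprised 9 genes on chromosome 16 between positions 20327808 and 20742084, a span of 414 kb. Its genes were GP2 and UMOD, which encode related glycoproteins of pancreas and kidney, PDILT, ACSM5, ACSM2A, ACSM2B, ACSM3 and ACSM1, of which the ACSM genes encode medium-chain acyl-CoA synthetases, and THUMPD1. Each had a separate peak. Their widths were 4940 bp at GP2, 2180 bp at UMOD, 5130 bp at PDILT, 6080 bp at ACSM5, 16680 bp at ACSM2A, 36930 bp at ACSM2B, 3110 bp at ACSM3, 2320 bp at ACSM1 and 760 bp at THUMPD1. The span contained 34 peaks, 9 of them over a TSS, and was covered to 42.7%. At UMOD, ACSM3 and THUMPD1 the MANE TSS lay outside the peak. ACSM2A and ACSM2B are close copies of each other, and chromosome 16 is among the chromosomes taken as gained.

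**Figure D5:**
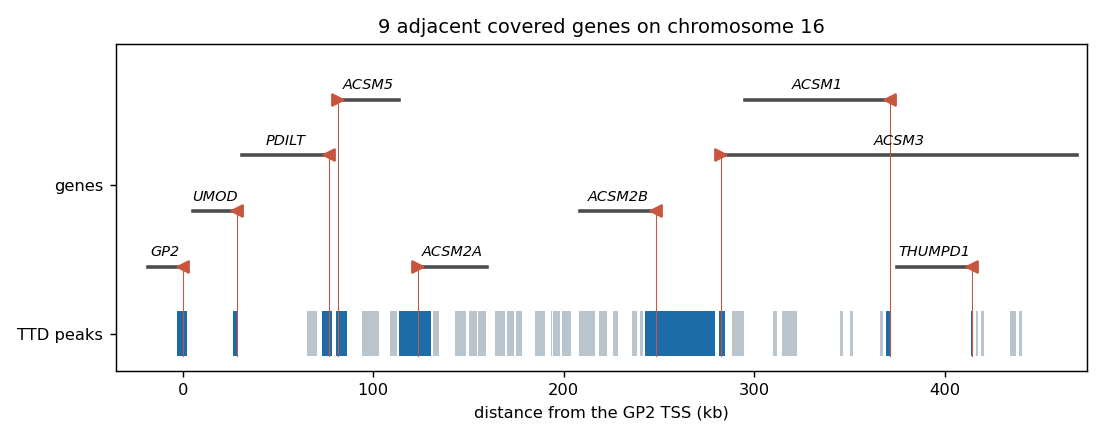
TTD peaks (boxes) and protein-coding genes (lines, arrowheads at the TSS pointing in the direction of transcription) at the run of 9 covered genes on chromosome 16 (x axis, kb from the TSS of GP2). Dark boxes are peaks over a TSS and light boxes are other peaks. The widest box, 36930 bp, lies over the TSS of ACSM2B and mostly upstream of it.

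The next run was that of SERPINA11, SERPINA9, SERPINA12, SERPINA4 and SERPINA5 on chromosome 14, with 4 peaks over a TSS in 109 kb, 34.5% of which was covered. ALB, AFP and AFM, neighbours of the same gene family on chromosome 4, each had a peak of their own within 84.6 kb, of 22530, 7960 and 6060 bp. C4A, C4B and CYP21A2 on chromosome 6, CYP3A5 and CYP3A7 on chromosome 7, KRT23, KRT39 and KRT40 on chromosome 17, and SP110, SP140L and SP100, genes of nuclear body proteins on chromosome 2, formed further runs.

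Of the 25 peaks with more than 1 TSS, 12 included genes that point away from each other. The 3 peaks with 3 TSSs lay over TK2, CKLF and the readthrough gene CKLF-CMTM1 (3650 bp, TSSs within 43 bp), over GCSH of the glycine cleavage system and the gene records ENSG00000284512 and ENSG00000260643 (2270 bp, within 111 bp), and over IGBP1C, TEX14 and RAD51C (1120 bp, within 528 bp). The first contains a bidirectional promoter and a readthrough record, so these counts are of gene records and not of separate promoters.

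The share of covered TSSs differed between chromosomes. It was highest on chromosome 6 (61 of 1051, 5.80%), chromosome 2 (66 of 1247, 5.29%), chromosome 14 (5.19%), chromosome 16 (5.02%) and chromosome 20 (4.76%), and lowest on chromosome 22 (1.12%), X (1.40%) and 19 (1.56%). On chromosomes 2, 14, 16, 17 and 20 together, 4.49% (3.92 to 5.14) of TSSs were covered, against 2.51% (2.27 to 2.76) on the others. Chromosome 17 did not share this, with 2.78% (33 of 1186). Copy number was not measured here, and its part in this difference was not tested. The share of low CpG promoters among covered TSSs was 70.2% without these chromosomes.

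Short motifs were counted in the DNA upstream of each TSS, as matches of letters and not as bound sites. TATAAA in the 50 bp upstream on the sense strand was found at 40 of 589 covered TSSs (6.79%, 5.03 to 9.12) and at 3.44% of all TSSs. Among low CpG TSSs the shares were 7.92% of covered and 6.97% (6.36 to 7.64) of not covered ones, so that this difference was within the counting error once CpG class was held fixed. The core of the HNF1 motif, TTAATNATT on either strand within 300 bp, was found at 26 covered TSSs (4.41%, 3.03 to 6.39) and at 1.16% of all. Within the low CpG class the shares were 24 of 404 covered (5.94%, 4.02 to 8.69) and 128 of 6110 not covered (2.09%, 1.76 to 2.49). HNF1 is a homeodomain factor of liver, kidney and gut. The covered genes with this match included C4BPA, UGT2A3, SULT1E1, AKR1B10, SERPINA4, SERPINA5 and UGT1A3 of the hepatocyte classes and, chosen after their values were seen, G6PC1, which releases glucose from the liver, SLCO1B3, CUBN and PKHD1.

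The HNF4 motif CAAAGTCCA was found at 10 of 404 covered low CpG TSSs (2.48%, 1.35 to 4.50) and at 30 of 6110 not covered (0.491%, 0.344 to 0.70), and at 0.30% of all TSSs. None of these 10 genes was in a hepatocyte class, where the match was found at 0 of 55 covered TSSs (0 to 6.53%) and 7 of 233 not covered (3.00%). Among the 10 were the transporter genes SLC22A9 and SLC3A1 and the receptor gene GPR35. The C/EBP motif TTGCNCAA was found at 6.93% (4.84 to 9.83) of covered and 3.55% (3.12 to 4.05) of not covered low CpG TSSs, and at 2.59% of all. The FOXA motif TGTTTAC was found at 5.69% (3.82 to 8.40) and 4.60% (4.10 to 5.15), within counting error, and at 2.96% of all. GGGCGG, the GC box, was less frequent at covered TSSs, with 7.43% (5.25 to 10.4) against 15.3% (14.4 to 16.2) in the low CpG class and 50.7% of all TSSs. Genes of 1 family with similar promoters and gene pairs with 1 start are not independent, which these intervals do not take into account.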

How the data were processed

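Per the submitters' processing notes and the study's methods, the authors used Trimmomatic 0.38 for trimming, HISAT2 2.2.1 for alignment to hg38, deepTools 3.3.2 for RPKM coverage and MACS2 2.1.1 for broad peaks on the mean of both TTD replicates, followed by manual curation. The deposited list contains other values than signal, namely positions and widths in bp of 31569 peaks. Signal tracks of the single libraries, H3K9me2 ChIP and input were not used here. The list does not give read depth.

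Peaks and TSSs were intersected on GENCODE release 44 and hg38 with pandas 2.3.3 and numpy 2.4.6 (Python 3.11.15), sequences were read with pysam 0.24.0, intervals came from scipy 1.17.1, and matplotlib 3.10.9 drew the figures. Containment of TSSs and intervals were tested on simulated data. The 33 gene classes are name lists and patterns. The gene names given are the 10 widest and 5 narrowest peaks, peaks with 3 TSSs, the 6 widest peaks of each class, the 5 TSSs nearest to and farthest from an edge, and genes that the study names. Some genes that this rule names are not reported here. Other names were added after values were seen. The members and lists were chosen with earlier results of these data known. Alternatives were other TSS definitions, wide or joined peaks, TSSs at least 150 bp inside, no readthrough genes and a 500 bp CpG window. Leaving out gained chromosomes or near-identical copies was added after seeing the data.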

Additional observations from a re-analysis of the deposited data

How the results depend on the processing

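The peak list gives no score, replicate value or depth, and the libraries' signals were not used here. With MANE TSSs the covered share was 2.17%, the median width 3405 bp and the share of genes wholly in the peak 7.99%. With any protein-coding transcript TSS, 1030 peaks covered the TSSs of 5.38% of genes, 54.3% of the median peak lay upstream, 78.6% of covered TSSs were low CpG, 26.7% of the hepatocyte classes were covered and 3.17% of genes lay wholly in the peak. Peaks at or above the median width numbered 346 over a TSS, with values of 1.84% covered, 4270 bp, 77.9% low CpG and 8.72% wholly in the peak. Joining peaks less than 1 kb apart gave a median width of 3230 bp. TSSs at least 150 bp inside gave 2.47%, 3230 bp and 72.9% low CpG. Without chromosomes 2, 14, 16, 17 and 20 the covered share was 2.51%. The causes of these shifts were not tested beyond the fewer or more TSSs and peaks that each alternative counts. Without families of near-identical copies, the 8 hepatocyte classes were covered to 15.7%. Of 264 class shares recomputed, 246 stayed within their interval and 18 did not. No paired analysis was possible because the list was called on the mean of both TTD replicates.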

Other observations

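Several covered genes outside the 8 hepatocyte classes, picked after their values were seen, serve liver metabolism and secretion. PCK1, which commits carbon to glucose synthesis, had a peak of 5640 bp with 5389 bp upstream of the TSS, and G6PC1, which releases glucose, had one of 2580 bp with 1566 bp upstream. BAAT, which conjugates bile acids, had a peak of 8620 bp, of which 7029 bp lay downstream, and the plasma lipid transfer protein gene CETP had one of 5490 bp, of which 5357 bp lay downstream. SLC10A1, the bile acid importer of hepatocytes, had 3240 bp, and PKLR, the pyruvate kinase of liver and red cells, 2420 bp. In each of these 6 genes the MANE TSS lay in the peak. At AGT (angiotensinogen) the peak of 3590 bp covered the start of the gene record, and the MANE TSS lay 31454 bp away and outside.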
